A study of Mus musculus with 36 samples.

Results

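The genes described here encode the subunits of the mitochondrial respiratory chain and ATP synthase, together with a few proteins whose symbols share the same prefixes. Members were all probes of the deposited table whose symbol begins with Nduf followed by a, b, c, s or v, with Uqcr, with Cox4 to Cox8 or with Atp5, together with Sdha, Sdhb, Sdhc and Sdhd. The table held 119 such probes for 81 genes among 45281 probes in all. Of these, 101 probes for 74 genes were detected (detection p under 0.01) on at least 1 of the 36 arrays and were kept, as were 21712 probes of the whole table. The 18 member probes left out included every probe of Cox6a2, Cox7b2, Cox8b, Cox8c, Ndufs1, Sdha and Uqcrq. Of the genes in the table, kept probes covered 34 of 35 of complex I, 3 of 4 of complex II, 6 of 7 of complex III, 11 of 15 of complex IV and 14 of 14 of ATP synthase. A further 8 probes for 6 genes match the prefixes but encode other proteins (Atp5s, Atp5sl, Cox4nb, Cox7a2l, Ndufa12l and Ndufaf1). Atp5g1, Cox8a, Ndufs5, Ndufv3 and Ndufa4l2 were not analysed here, since the table holds no probe under those symbols.

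The study dissected regions of wild-type embryos of the outbred MF1 strain during axis elongation and measured total RNA on mouse whole-genome bead arrays. Each array carried a separate pool of 6 to 74 pieces of 1 region. There were 16 regions, 12 with 2 arrays and 4 with 3. The arrays filled 6 BeadChips in 3 batches of 12. Headfold-stage embryos at E7.5 gave an anterior piece (A, 3 arrays), a posterior piece (P) and a more proximal piece of the posterior (PP). Embryos of 2 to 5 somites at E8.5 gave St1 and St5 (the front and back of the primitive streak), RN (the rostral part of the node), NSB (where node and streak meet, 3 arrays) and CLE (the lateral epiblast flanking the streak, 3 arrays). Later embryos gave the CNH, or chordoneural hinge, at E9.5 (22 to 25 somites), E10.5 (32 to 35), E11.5 (40 to 45, 3 arrays), E12.5 (50 to 55) and E13.5 (60 to 63). Mesoderm-fated tissue behind the hinge (P-CNH) came from E9.5, E10.5 and E11.5. NSB, CLE and CNH contain neuromesodermal progenitors (NMPs). Only CLE, among regions up to E8.5, was freed of endoderm, and the paper anticipated some surface ectoderm in St5 and the oldest CNH (E13.5). Dissected pieces thus mix cell types. In such pieces, fewer cells of a type and less RNA per cell cannot be told apart.

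The respiratory chain passes electrons from NADH (through complex I) or succinate (through complex II) by way of ubiquinone, complex III and cytochrome c to oxygen at complex IV. Complexes I, III and IV pump protons across the inner mitochondrial membrane, and ATP synthase uses the gradient to make ATP. Most subunits are nuclear-encoded and made in nearly all tissues, while some of complex IV have tissue-restricted isoforms, such as Cox4i2 (known from lung and from responses to low oxygen) and Cox6b2 (known from testis) beside the widely made Cox4i1 and Cox6b1.

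Promoters of the isoform pair Cox6b2 and Cox6b1 are shown because Cox6b2 passed the test among regions and Cox6b1 did not. All 81 genes matched a RefSeq entry (build GRCm38.p6), 6 of them by an older symbol. Promoter sequences, taken as the 250 bases before a transcription start, were available for 63 of the 74 kept genes (69 promoters). Kept genes without a promoter sequence included Atp5a1, Cox4i1, Cox4i2, Cox4nb, Cox6c, Ndufa2, Ndufb9, Sdhc, Uqcrb and Uqcrc2. The Cox6b2 promoter lies at chr7:4753095-4753344 and that of Cox6b1 at chr7:30626115-30626364, both on the minus strand and printed 5′ to 3′ along it. Capitals mark matches, on either strand, to the motifs searched.
Cox6b2: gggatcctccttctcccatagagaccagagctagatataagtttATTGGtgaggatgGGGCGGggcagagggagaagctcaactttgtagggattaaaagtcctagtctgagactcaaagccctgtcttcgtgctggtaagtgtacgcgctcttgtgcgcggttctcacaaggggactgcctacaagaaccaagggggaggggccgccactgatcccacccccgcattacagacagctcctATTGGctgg
Cox6b1: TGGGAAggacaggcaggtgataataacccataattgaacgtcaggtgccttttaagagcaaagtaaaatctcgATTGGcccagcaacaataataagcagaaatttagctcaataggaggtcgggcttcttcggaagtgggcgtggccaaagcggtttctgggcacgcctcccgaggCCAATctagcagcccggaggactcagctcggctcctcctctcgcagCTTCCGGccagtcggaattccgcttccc

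The Cox6b2 window held 1 match to GGGCGG and 2 to CCAAT, both on the reverse strand. That of Cox6b1 held 1 match to CCGGAAG on the reverse strand, 1 to TGGGAA, and 1 to CCAAT on each strand. Over the 69 member promoters, GCGCATGCG (the letters known for NRF1, a regulator of mitochondrial genes) was found in 6 (8.7%), against 1.4% of all 32851 promoters. CCGGAAG, of the type bound by ETS factors, was found in 13 (18.8%), against 6.9%. CCAAT was found in 28 (40.6%) against 33.8%, GGGCGG in 26 (37.7%) against 32.7%, and ACGTG in 15 (21.7%) against 16.6%. TGGGAA was found in 12 (17.4%) against 21.6%, and TATAAA in 6 (8.7%) against 12.4%. Both strands were searched, and ACGTG and TGGGAA can overlap. A match is a description of the letters and no more.

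Member probes were among the brighter probes of the arrays, so most were measured well above background. The median member lay at percentile 90.6 of the mean log2 signal over all kept probes, and 52 members (51.5%) lay in the brightest 10% of them. On every array, 75 of the 101 members were detected, against 7970 of the 21712 kept probes. Between 84 and 99 members were detected on an array. Detected probes of the whole table ranged from 10814 to 16256 per array (median 15054), and their median intensity from 138.6 to 1528 units. The fewest were on E13.5 CNH replicate 2 (10814), E8.5 CLE replicate 1 (11062), E11.5 P-CNH replicate 1 (12280), E8.5 CLE replicate 2 (12289) and E7.5 P replicate 1 (13073). E11.5 CNH replicate 2 (13120) and E8.5 NSB replicate 3 (13147) followed closely, so the choice of these 5 arrays has no gap behind it. Counts are also given without the 5. The number of arrays limits the precision, and a p-value measures the spread between pools.

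Region labels were checked against marker genes, 16 of 17 of whose probes (94.1%) differed among regions. Otx2, an anterior marker, averaged 12.32 on the log2 scale in E7.5 A and 9.95 in E7.5 P. Wnt3a, made in the streak and tail bud, averaged 5.04 in E7.5 A and 12.16 in E7.5 P. Shh, made in node and notochord, averaged 12.01 in RN and 11.36 in NSB, and was higher in CNH than in P-CNH by a log2 difference of 5.13 (adjusted p = 2.51e-09). Tbx4 averaged 11.90 in St5. Noto, made in the node and notochord, averaged 9.24 in the E10.5 CNH by its brightest probe and 5.96 in the E13.5 CNH. Of 15 probes of heart and muscle genes, 7 were kept: Tnnc1 was detected on 28 arrays, Myl4 on 27, Tnni1 on 16, Actc1 on 13, Myl7 on 8, Myog on 5 and Nkx2-5 on 1. Myl7 averaged 9.22 and Myl4 7.94 in E7.5 A, and Myh6, Myh7 and Myod1 had no kept probe. Tnnt2 was not analysed here.

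In the test among the 16 regions, a smaller share of members than of all probes passed, by a count that depended on the arrays and on the batch term. The difference between the shares was not tested. In the limma F-test among regions, with batch in the fit, 5 of 101 member probes (4.95%) had an adjusted p of 0.05 or less and so passed, and 7 had an unadjusted p under 0.05. Over all kept probes 35.6% passed, over the probes detected on every array 32.7%, and over the brightest 10% 21.2%. Of the 75 members detected on every array, 3 passed (4%). None of the 48 probes of complex I, the 4 of complex II or the 21 of ATP synthase passed, while 1 of 6 of complex III, 2 of 14 of complex IV and 2 of the 8 that are not subunits did. Those 5 were Cox4i2, Cox6b2, Uqcrb, Atp5sl and Cox4nb. Ranked by each gene's brightest probe, Ndufb9 (adjusted p = 0.162), Ndufs8 (0.164), Sdhc (0.209) and Atp5a1 (0.213) followed. Dimmer probes of Ndufs4 (0.0665), Ndufa3 (0.109) and Ndufc2 (0.131), named after their values were seen, had smaller values and did not pass. Without the 5 arrays with the fewest detected probes, 25 members passed (24.8%), against 63% of all probes and 47% of the brightest 10%. Without the batch term 18 passed (17.8%), against 43.5% and 27.5%. With single arrays left out, the count was 12 without E13.5 CNH replicate 1 (43.8% of all probes passed), 8 without E7.5 P replicate 2 (36.1%), 18 without E11.5 P-CNH replicate 2 (47.3%) and 3 without E12.5 CNH replicate 2 (33.7%).

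**Figure D1:**
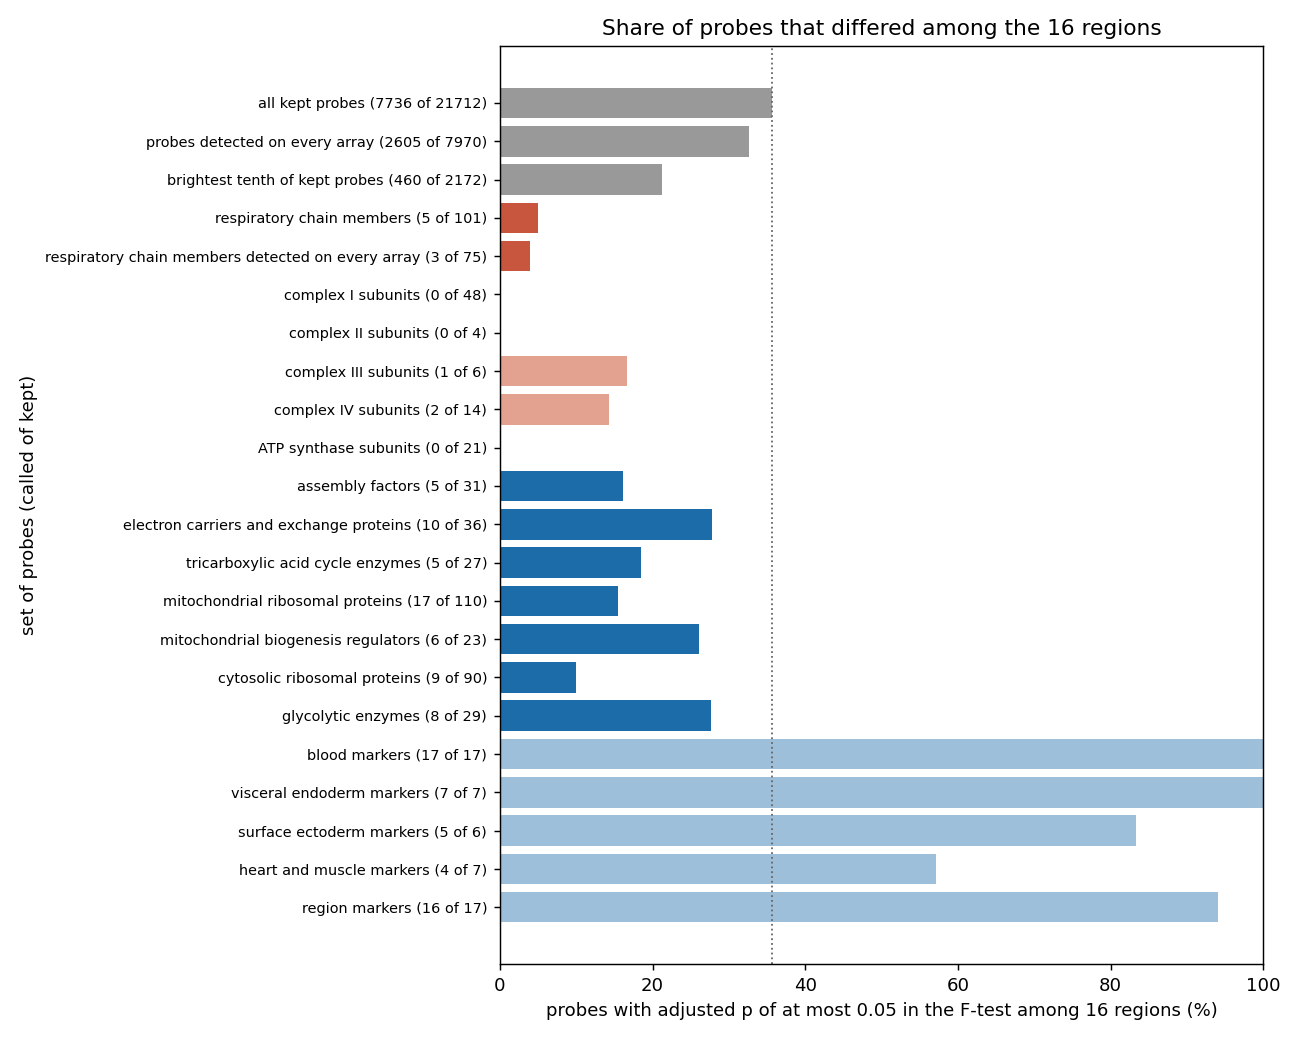
Share of probes (%, bars from 0) that differed among the 16 regions at an adjusted p of at most 0.05 in the limma F-test, for members and for sets of all probes. Members stand at 4.95% and all kept probes at 35.6%.

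Within batch 1, the spread of the members was small as well. Over the 12 arrays of batch 1, which hold RN, St1, St5, both E10.5 regions and 2 NSB arrays, the SD of a member's log2 signal had a median of 0.133 (0.053 to 0.806), against 0.234 over all kept probes. In the brightest 10% of all probes that median was 0.149. The SD of the 16 fitted region means had a median of 0.266 over members, 0.416 over all probes and 0.246 over the brightest 10%. The residual SD of the fit, by contrast, had a median of 0.345 over members, near the 0.366 over all probes and above the 0.250 of the brightest 10%.

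Between batches many members did shift. The median of members, as a shift from each member's own mean, lay between -0.1 and 0.06 on arrays of batch 1, between -0.57 and 0.11 in batch 2 and between 0.04 and 0.28 in batch 3. The lowest arrays were E7.5 P replicate 1 (-0.57, against -0.03 over all probes) and E8.5 CLE replicate 1 (-0.42, against -0.16). Arrays of batch 2 differed from those of batch 3 by more than 1.5-fold in 36.6% of members, against 31.3% of all probes and 15.1% of the brightest 10%. For batch 2 against batch 1 these shares were 36.6%, 45.4% and 22%, and for batch 3 against batch 1 they were 30.7%, 44.8% and 17.1%. Sdhd, a membrane anchor of complex II, averaged 9.90, 6.40 and 9.17 in batches 1, 2 and 3. Ndufb9, of the membrane arm of complex I, averaged 9.51, 6.26 and 8.91. For Atp5a1, the alpha subunit of ATP synthase, the means were 11.53, 8.48 and 10.51. These genes moved with the batch, so their values are compared between regions only with batch in the fit.

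**Figure D2:**
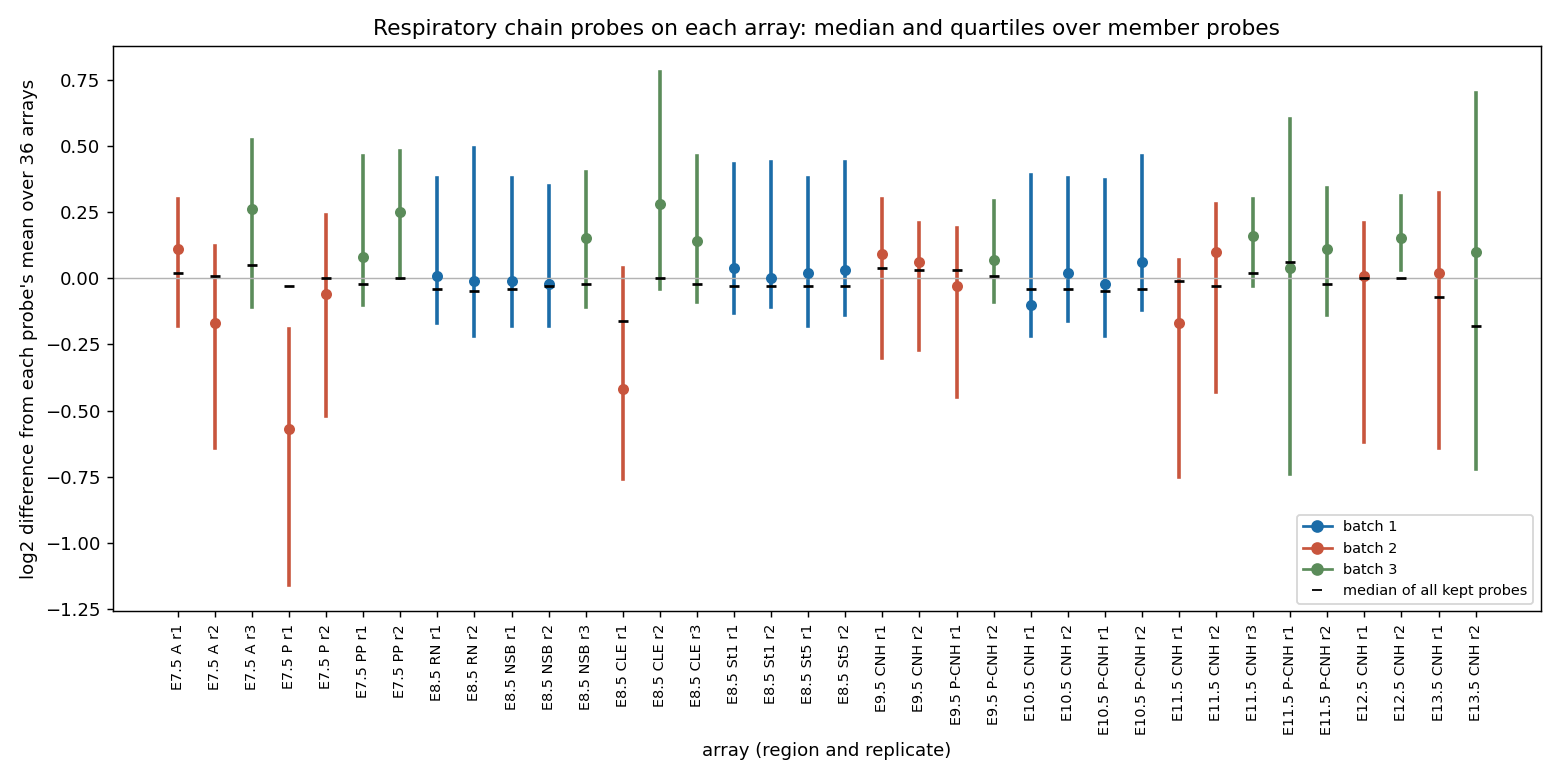
Shift of the 101 members on each of the 36 arrays (log2, each member minus its own mean), with the median as a point and the quartiles as a line, coloured by batch, and the median of all kept probes as a black dash. Medians in batch 1 lie between -0.1 and 0.06, and the lowest is E7.5 P replicate 1 at -0.57.

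Complex I, the NADH dehydrogenase, was represented by 34 genes. Its core subunits include Ndufv1, which takes the electrons from NADH, and Ndufs3, Ndufs7 and Ndufs8 of the same arm. Ndufv1 was detected on all 36 arrays with a log2 signal of 12.32 to 13.36 (mean 12.60, SD 0.24, F-test adjusted p = 0.962). Ndufs7 averaged 12.12 (SD 0.30) and Ndufs8 averaged 11.68 (SD 0.30). By their brightest probes, Ndufa8, an accessory subunit, and Ndufv2, a core iron-sulphur subunit, had the smallest spread of the complex I genes. Each had an SD of 0.16 over the 36 arrays, while a dimmer probe of Ndufa8 had an SD of 0.56 (8.60 to 11.26). The probe that stands for Ndufb9 was detected on 32 arrays and had an SD of 1.53, with the batch means given above.

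Complex II, succinate dehydrogenase, was represented by Sdhb, Sdhc and Sdhd, with no kept probe of its flavoprotein Sdha. Sdhb, the iron-sulphur subunit, ranged from 10.26 to 11.58 (mean 11.04, SD 0.32). Sdhc, a membrane anchor, averaged 11.91 (SD 0.28), and Sdhd averaged 8.49 (SD 1.59, detected on 32 arrays). Sdhb and Sdhc therefore spread little over the arrays, and Sdhd spread with the batch.

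In complex III, the core proteins Uqcrc1 (mean 12.32, SD 0.45) and Uqcrc2 (mean 12.67, SD 0.43) were detected on every array. Uqcrfs1, the Rieske iron-sulphur protein, was detected on 2 arrays with a mean of 5.11, so its differences could not be read. Uqcrb, which helps form the ubiquinone site, differed among regions (limma F-test, adjusted p = 0.0258; 0.0226 to 0.325 over 11 alternatives, 5 of which lost the call). Its log2 signal was 6.62 at the lowest, 7.83 at the median and 8.81 at the highest over the 19 arrays up to E8.5. Over the 17 tail bud arrays these values were 5.19, 7.44 and 8.32. The stages overlapped, and the lowest value belonged to E13.5 CNH replicate 2, without which the adjusted p was 0.104.

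Complex IV, cytochrome c oxidase, held the clearest regional pattern, and it lay in the isoforms Cox4i2 and Cox6b2. Cox4i2 passed the F-test with an adjusted p of 1.12e-05 (2.93e-06 to 0.00045 over 11 alternatives) and Cox6b2 with 0.00265 (6.59e-05 to 0.00815). Neither call was lost when any 1 of 35 arrays was left out. Cox4i2, an isoform of a regulatory subunit, was detected on 21 arrays: 7 of 19 up to E8.5 and 14 of 17 in the tail bud.

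At E7.5, Cox4i2 stood at 4.61, 4.71 and 6.83 in A, at 4.69 and 5.65 in P and at 4.96 and 6.05 in PP (log2 signal). At E8.5 it stood at 5.51 and 5.28 in RN, at 5.03, 5.29 and 7.25 in NSB, at 4.82, 8.23 and 6.83 in CLE, at 5.47 and 5.43 in St1, and at 7.04 and 6.94 in St5. St5 was thus high on both arrays. None of the 5 early arrays of batch 2 detected Cox4i2 and 5 of the 6 of batch 3 did, with a fitted batch 2 minus batch 3 difference of -1.54. In the CNH it stood at 5.55 and 5.47 at E9.5, at 6.13 and 5.92 at E10.5, at 8.13, 8.92 and 8.45 at E11.5, at 5.74 and 6.61 at E12.5 and at 9.06 and 10.06 at E13.5. In the P-CNH it stood at 6.09 and 8.58 at E9.5, at 7.22 and 6.94 at E10.5 and at 11.04 and 9.08 at E11.5. The E11.5 CNH arrays lay above every E9.5, E10.5 and E12.5 CNH array.

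Cox6b2, an isoform of a subunit that joins complex IV into dimers, was detected on all 36 arrays by its kept probe. Its other probe was detected on 0 arrays (mean 4.99, highest 5.46), so the pattern of Cox6b2 rests on 1 probe. In E7.5 A it stood at 8.32, 8.64 and 9.04, in P at 6.77 and 7.48 and in PP at 7.13 and 7.88. At E8.5 it stood at 6.98 and 6.67 in RN, at 6.82, 6.81 and 8.27 in NSB, at 8.10, 9.06 and 7.70 in CLE, at 7.22 and 6.93 in St1, and at 6.72 and 6.66 in St5. E7.5 A thus lay above P and PP, and CLE lay above RN, St1 and St5, with which it shares no batch. In the CNH it stood at 7.27 and 7.24 at E9.5, at 7.74 and 7.51 at E10.5, at 8.77, 8.90 and 8.84 at E11.5, at 8.88 and 8.20 at E12.5 and at 9.13 and 11.21 at E13.5. In the P-CNH it stood at 7.16 and 7.12 at E9.5, at 7.15 and 7.15 at E10.5 and at 10.09 and 8.35 at E11.5. All CNH arrays from E11.5 on lay above those at E9.5 and E10.5.

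The paralogues and the remaining named subunits of complex IV did not pass the F-test. Cox4i1 ranged from 12.92 to 13.92 (SD 0.23, adjusted p = 0.335) and Cox6b1 from 12.87 to 13.92 (SD 0.32, adjusted p = 0.369). Cox6a1 had a mean of 12.74 (SD 0.37, adjusted p = 0.985), and its muscle isoform Cox6a2 had no kept probe. Cox7a1, known from heart and muscle, ranged from 7.31 to 9.14 (adjusted p = 0.636), and Cox7a2 from 7.27 to 10.85 (adjusted p = 0.880). Cox7b was detected on 24 arrays with an SD of 1.53 and batch means of 8.28, 5.08 and 7.83. Cox5a (mean 13.09, SD 0.33) and Cox5b (mean 13.40, SD 0.31), nuclear-encoded subunits beside the mitochondrially encoded core, were detected on every array. Ndufa4, first assigned to complex I and known as a partner of complex IV, ranged from 11.72 to 13.51 (adjusted p = 0.304).

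**Figure D3:**
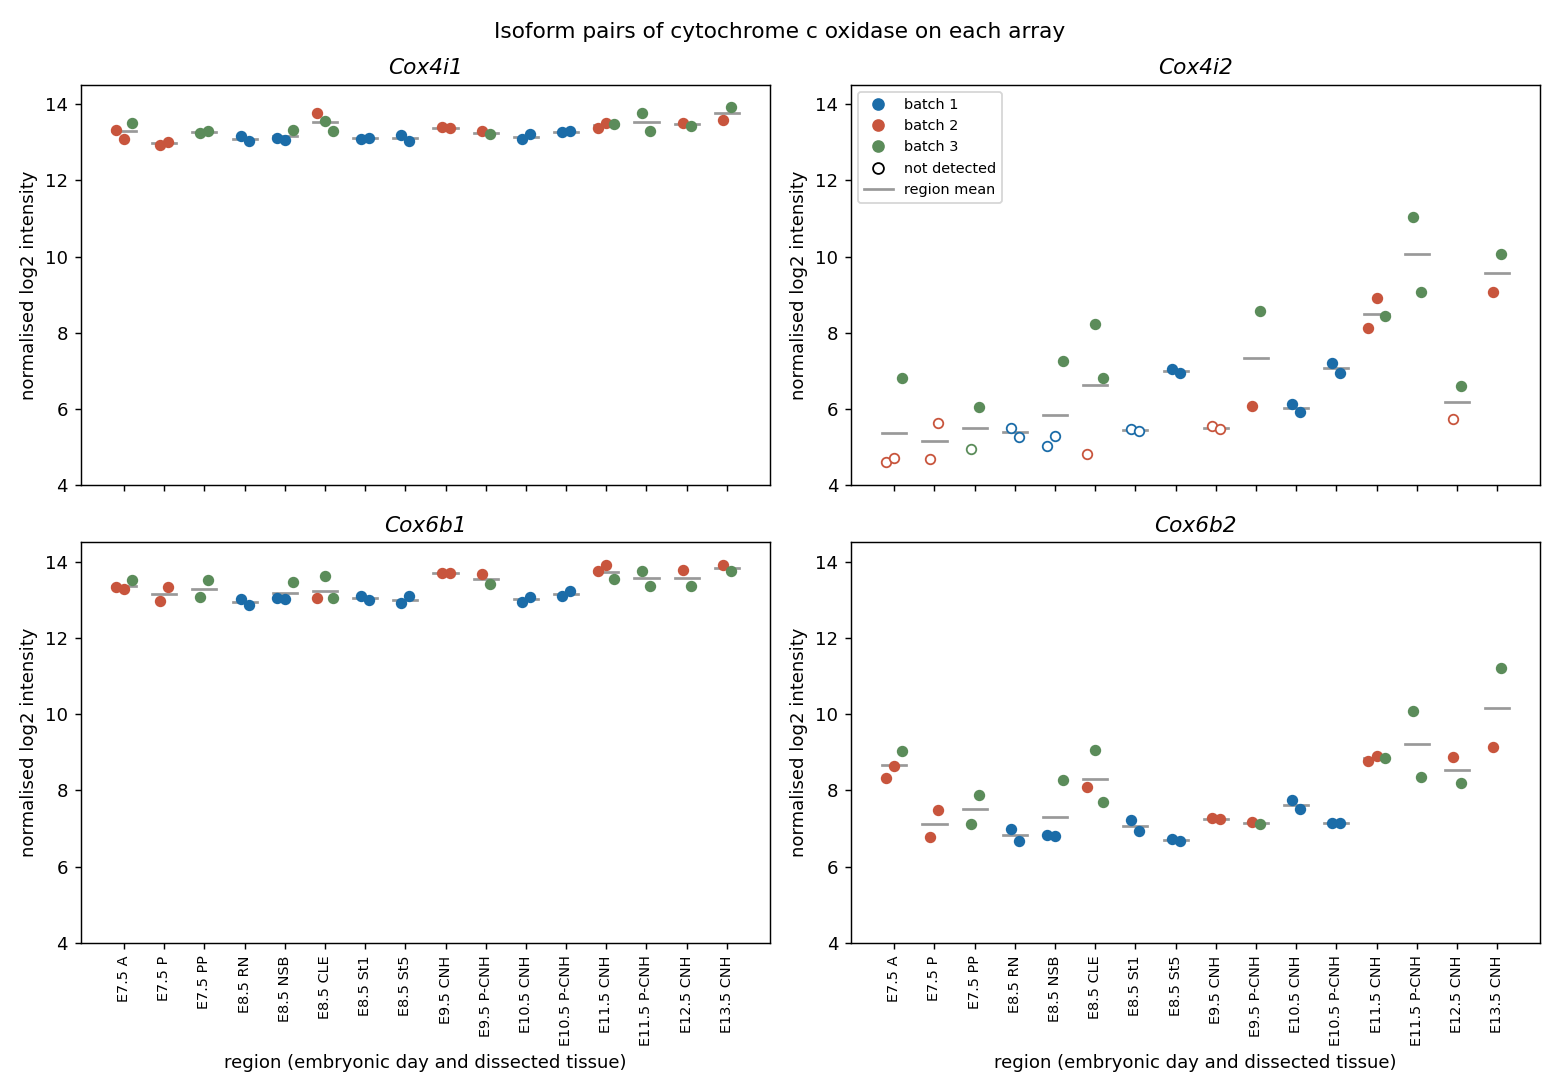
Log2 signal of Cox4i1, Cox4i2, Cox6b1 and Cox6b2 on each of the 36 arrays by region, with batch as colour, open points where the probe was not detected and a line at each region's mean. Cox4i2 spans 4.61 to 11.04 and Cox6b2 spans 6.66 to 11.21.

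ATP synthase was represented by 14 genes, with no probe of Atp5g1 in the table. Atp5b, the catalytic beta subunit, ranged from 13.80 to 14.79 (SD 0.23, F-test adjusted p = 0.978). Atp5a1, its alpha partner, ranged from 7.86 to 11.73 (SD 1.35) with the batch means given above. Atp5g2 and Atp5g3 encode the c subunit of the rotor ring, as does Atp5g1. Atp5g2 ranged from 10.11 to 11.91 (adjusted p = 0.239) and Atp5g3 from 13.13 to 14.61 (adjusted p = 0.792). Neither of these 2 passed the test among regions.

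Among the proteins that are not subunits, Atp5sl (also Dmac2, an assembly factor of the membrane arm of complex I) passed the F-test with an adjusted p of 0.0287 (0.00075 to 0.0908 over 11 alternatives, 2 of which lost the call). It ranged from 9.72 to 11.00 (median 10.29) over the 19 arrays up to E8.5 and from 9.31 to 10.49 (median 9.72) over the 17 tail bud arrays. The ranges overlapped, with the tail bud lower. It did not pass when replicate 1 of St5 or replicate 2 of the CNH at E9.5, E10.5 or E12.5 was left out, with an adjusted p of up to 0.0807. Of Cox4nb (Emc8, a part of the endoplasmic reticulum membrane complex), 1 probe passed with an adjusted p of 0.0203 (0.00375 to 0.277 over 11 alternatives, 3 of which lost the call), ranging from 9.63 to 11.25 up to E8.5 and from 9.55 to 10.92 in the tail bud. Without E12.5 CNH replicate 2 or E7.5 PP replicate 2 it was lost (adjusted p of up to 0.0564), and its brighter probe did not pass (0.761). Cox7a2l, which joins complexes III and IV into supercomplexes, averaged 10.55 (SD 0.85). Ndufaf1 (mean 10.46, SD 0.34) and Ndufa12l (also Ndufaf2; mean 10.64, SD 0.74) are assembly factors of complex I, and Atp5s (mean 8.02, SD 0.41) is associated with ATP synthase. None of these 4 passed.

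**Figure D4:**
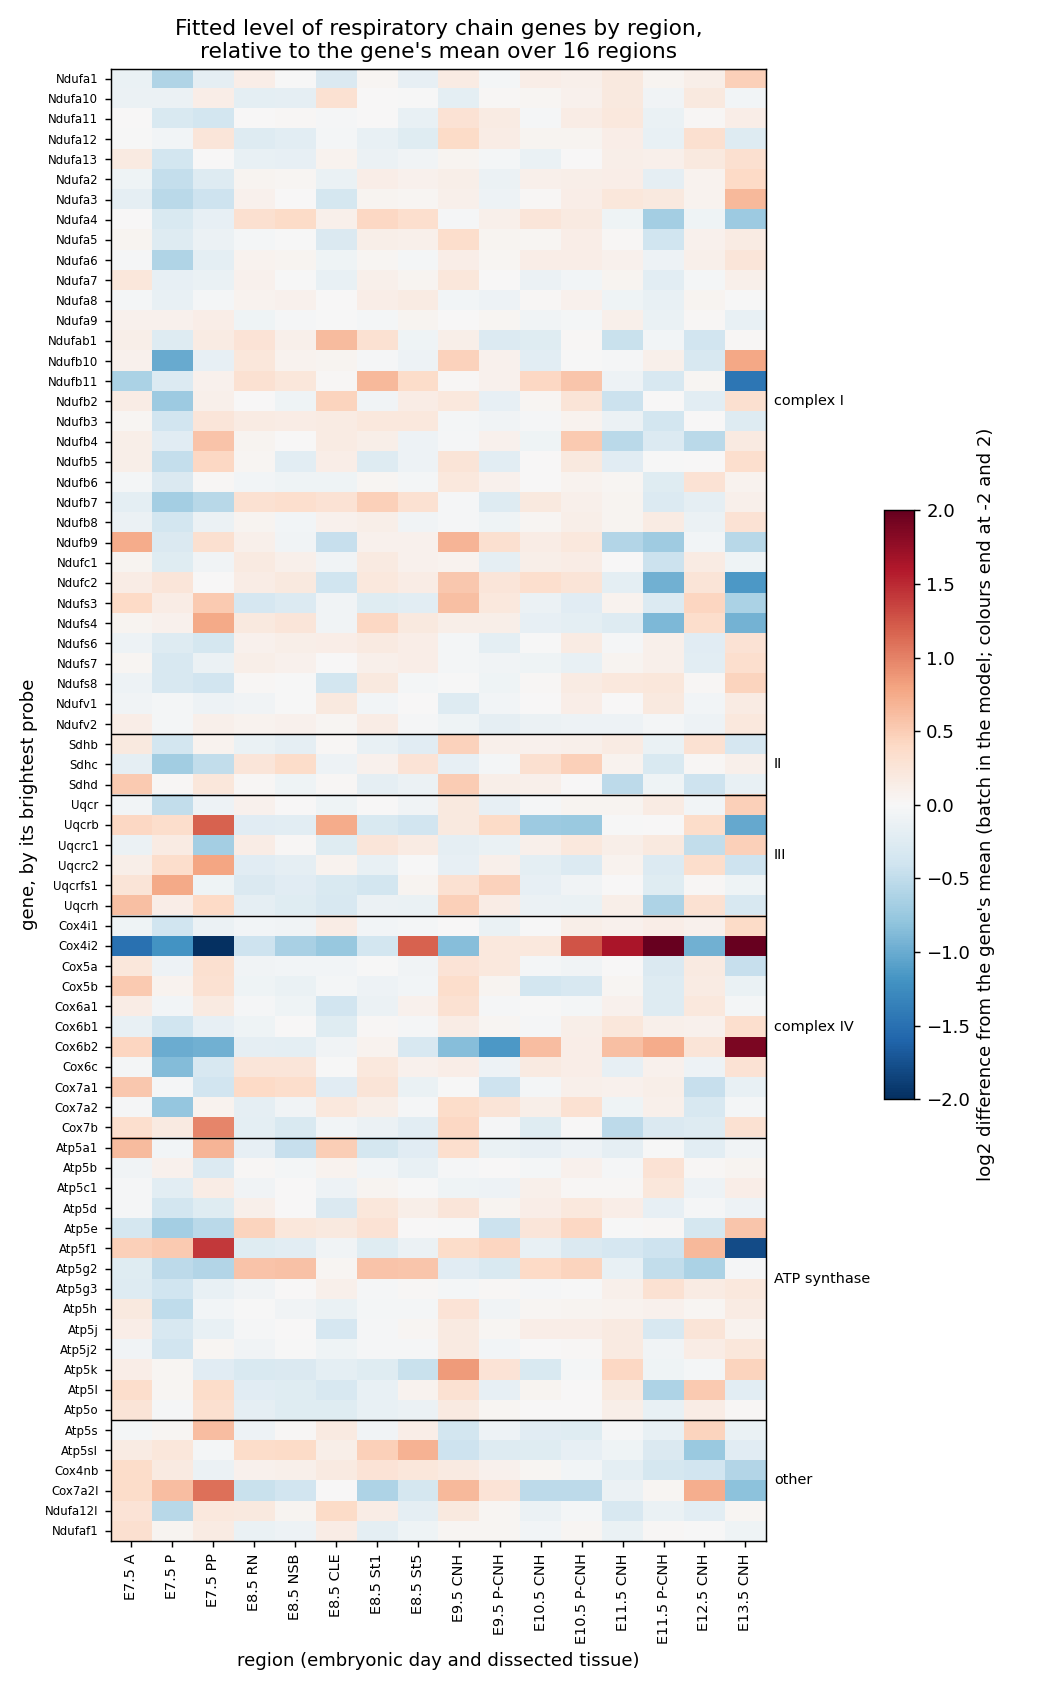
Fitted region means of kept genes, each by its brightest probe, across the 16 regions with batch in the fit (log2, centred on each gene's mean, colours ending at -2 and 2). Cox4i2 and Cox6b2 passed the F-test with adjusted p of 1.12e-05 and 0.00265.

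Across the tail bud, Cox4i2 rose and Atp5sl fell against the regions up to E8.5. This comparison set the mean of the 8 regions from E9.5 on against that of the 8 earlier regions, and asks what changes as the axis elongates. Cox4i2 was 4.61 at the lowest, 5.47 at the median and 8.23 at the highest over the 19 early arrays, and 5.47, 7.22 and 11.04 over the 17 tail bud arrays. The tail bud was higher, with ranges that overlapped. The log2 difference was 1.52 (SE 0.27, adjusted p = 0.000109), and the call held in all 16 alternatives (differences of 0.8 to 2.1, adjusted p of 1.73e-05 to 0.00159). Cox4i2 was detected on 7 of the 19 early arrays, so the size of its rise is open, also within batches. For Atp5sl the log2 difference was -0.60 (SE 0.117, adjusted p = 0.000304; 1.61e-05 to 0.0897 over 16 alternatives).

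With these, 1 member was higher (10.7% of all probes were) and 1 was lower (8.46% of all probes), and 13 members had an unadjusted p under 0.05. The median difference of members was 0.00, against -0.02 over all probes, and 1.98% of members exceeded 1.5-fold against 20.7% of all probes. By complex the medians were 0.00 (I), 0.13 (II), 0.01 (III), 0.09 (IV) and 0.04 (ATP synthase). Within batch 1, Cox4i2 differed by 0.80 (SE 0.0864, adjusted p = 1.77e-05) and Atp5sl by -0.68 (SE 0.106, adjusted p = 0.000294), the only members called there, against 18.7% of all probes. The RN, NSB and St1 arrays of batch 1 did not detect Cox4i2, so the size of its difference there is open. Within batches 2 and 3, Cox4i2 differed by 2.07 (SE 0.322, adjusted p = 0.000143) and Atp5sl by -0.51, under the 1.5-fold minimum. The Atp5sl call was lost in 6 of 16 alternatives, and also when 1 of 10 arrays was left out: replicate 1 of St5, or replicate 2 of E7.5 P, E7.5 PP, CLE, the CNH at E10.5, E12.5 or E13.5, or the P-CNH at E9.5, E10.5 or E11.5. Over all arrays left out in turn its difference lay between -0.65 and -0.55, and over the alternatives between -0.68 and -0.31. The latter was that of batch 2 alone (adjusted p = 0.0897), where 12 members (9 higher and 3 lower) and 29% of all probes were called. The count of members, 2 in all, was 4 without E11.5 P-CNH replicate 2 (21.1% of all probes), and 2 without the 5 arrays with the fewest detected probes. Blood markers were higher in 16 of 17 probes (Hbb-y by 7.59) and visceral endoderm markers lower in 7 of 7 (Ttr by -4.73); surface ectoderm markers were higher in 2 of 6, and heart and muscle markers higher in 1 and lower in 2 of 7. Most of the 17 blood probes, here and below, are of 1 gene, Hbb-b1. The part of these cell types in the result was not tested.

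From the E7.5 posterior region to the E9.5 CNH, 5 of 101 members (4.95%) were called higher, near the 4.64% of all probes, and none lower. The question is how the posterior embryo changes between the headfold stage and the tail bud. The 5 come from complex I (Ndufb10 and Ndufa6, accessory subunits), complex II (Sdhb), complex IV (Cox6c) and ATP synthase (Atp5h, of its peripheral stalk). Their 4 arrays lie on 1 BeadChip of batch 2, so that the batch cannot enter the difference.

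Ndufb10 stood at 9.35 and 9.49 in the E9.5 CNH and at 7.82 and 8.07 in E7.5 P, a log2 difference of 1.48 (SE 0.449, adjusted p = 0.0391 by limma; 0.00113 to 0.241 over 14 alternatives). Cox6c stood at 11.92 and 11.86 against 10.38 and 11.41, a difference of 0.99 (SE 0.306, adjusted p = 0.0425; 0.0337 to 0.409). A probe of Sdhb, not its brightest, stood at 10.73 and 10.78 against 9.96 and 9.79, a difference of 0.88 (SE 0.27, adjusted p = 0.0411; 0.00386 to 0.214). The ranges of the CNH and P arrays did not overlap in these genes, nor in the next ones. Atp5h stood at 11.30 and 11.12 against 10.04 and 10.83, a difference of 0.78 (SE 0.24, adjusted p = 0.044; 0.0234 to 0.467). Ndufa6 stood at 12.51 and 12.45 against 11.42 and 12.06, a difference of 0.74 (SE 0.213, adjusted p = 0.0283; 0.00913 to 0.155). In Cox6c, Atp5h and Ndufa6 the E7.5 P arrays lay well apart, with replicate 1 the lower.

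The 0 lower members compare with 4.63% of all probes called lower by limma, and 19 members had an unadjusted p under 0.05. Positive differences were found in 82 of 101 members, with a median of 0.36 against 0.03 over all probes, and 30.7% of members against 30.2% of all probes exceeded 1.5-fold. By complex the medians were 0.41 (I), 0.67 (II), -0.25 (III), 0.36 (IV) and 0.35 (ATP synthase). The calls rested on single arrays, while with each of the 4 left out in turn Ndufb10 differed by 1.35 to 1.60 and the called Sdhb probe by 0.80 to 0.97. Without E7.5 P replicate 1 no member was called and the median was 0.05, with differences of 1.35 for Ndufb10, 0.97 for Sdhb, 0.48 for Cox6c, 0.42 for Ndufa6 and 0.38 for Atp5h. In E9.5 CNH against E7.5 P without the 5 arrays with the fewest detected probes, 4 members were higher and 3 lower, with 18.2% of all probes called. No member was called when either E9.5 CNH array was left out, and 11 (8.51% of all probes) were without E7.5 P replicate 2, where Ndufb10 and Sdhb lost their calls. Within batch 2, 4 member probes were called (9.87% of all probes were), among them Ndufb10 at 1.48 (adjusted p = 0.00451) and both Sdhb probes at 0.88 and 0.82, while Cox6c, Ndufa6 and Atp5h lost their calls. The other call there was Atp5o (0.86), named after its value was seen. Within batches 2 and 3 the count was 0.

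Blood markers moved with this comparison, higher in 14 of 17 probes, with summed signals of 54900 and 56500 in the E9.5 CNH against 1590 and 573 in E7.5 P. Their largest difference was that of Hbb-y, an embryonic globin (8.93). Visceral endoderm markers were lower in 5 of 7 probes, with sums of 275 and 266 against 10800 and 6070, and Ttr, a secreted carrier protein, differed by -6.07. Among surface ectoderm markers 1 of 6 was lower, and among heart and muscle markers 2 of 7 were. The part of these cells in the result was not tested.

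Between E9.5 and E13.5 in the CNH, 2 isoforms of complex IV rose (10.6% of all probes were called higher) and 8 probes for 7 subunits fell (12.46% were called lower). The lower calls were each lost without single arrays, and with cyclic loess scaling 6 members were higher and 2 lower. By each gene's brightest probe 6 genes were called, with none of complex IV or ATP synthase lower. This comparison spans the tail bud from its start to the end of axis elongation. Cox4i2 stood at 9.06 and 10.06 at E13.5 and at 5.55 and 5.47 at E9.5, where neither array detected it. Both E13.5 arrays lay far above the E9.5 arrays. By measured means, which take no account of batch, it was at least 10.2-fold higher, taking the lowest signal of any detected probe on the E9.5 arrays as their limit. This is a bound on the measured means only, and not on the difference with batch in the fit. The E13.5 arrays lie in batches 2 and 3 and the E9.5 arrays in batch 2. The fitted log2 difference was 3.28 (SE 0.647, adjusted p = 0.000986 by limma; 0.000213 to 0.242 over 14 alternatives). Cox6b2 stood at 9.13 and 11.21 at E13.5 and at 7.27 and 7.24 at E9.5, a difference of 2.74 (SE 0.532, adjusted p = 0.000848; 0.000223 to 0.237). Its groups did not overlap either. Both calls held in 13 of 14 alternatives and without any 1 of the 4 arrays, where Cox4i2 differed by 2.92 to 3.55 and Cox6b2 by 1.88 to 3.88. With the BeadChip as a fixed term in place of batch they were lost, at differences of 2.16 for Cox4i2 and 1.46 for Cox6b2. Batch 2 holds 1 E13.5 array, and there that lone sample is assumed to vary like the other groups. Within batch 2 alone Cox4i2 differed by 3.55 (SE 0.455, adjusted p = 0.00467) and Cox6b2 by 1.88 (SE 0.326, adjusted p = 0.0131). Within batches 2 and 3 they differed by 3.28 (adjusted p = 0.0125) and 2.74 (adjusted p = 0.0114).

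Of the members that fell, Atp5o (the stalk protein that confers oligomycin sensitivity) and Uqcrb were called by probes that E13.5 CNH replicate 2 did not detect, so their size there is open. By a dimmer probe Atp5o stood at 8.43 and 5.48 at E13.5 and at 9.58 and 9.5 at E9.5, a log2 difference of -2.29 (SE 0.747, adjusted p = 0.0303; 0.0108 to 0.864 over 14 alternatives). Its brighter probe, at 13.70 and 13.46 against 13.64 and 13.60, was not called, and neither was its other dimmer probe. Ndufc2, of the membrane arm of complex I, stood at 11.80 and 9.97 against 12.60 and 12.39, a difference of -1.69 (SE 0.604, adjusted p = 0.0461; 0.0361 to 0.994), and its dimmer probe (-0.86) was not called. By its dimmer probe Cox5b stood at 10.68 and 9.53 against 11.53 and 11.37, a difference of -1.47 (SE 0.518, adjusted p = 0.0444; 0.0182 to 0.978), while its brighter probe was not called. In these genes E13.5 CNH replicate 2 lay far below replicate 1, and the groups did not overlap. Ndufs3 stood at 11.03 and 10.27 against 11.72 and 11.76, a difference of -1.23 (SE 0.372, adjusted p = 0.0205; 0.00721 to 0.53). Uqcrb stood at 7.58 and 5.19 against 8.27 and 8.11, a difference of -1.22 (SE 0.398, adjusted p = 0.0302; 0.0203 to 0.454). Ndufs4, an accessory subunit of the peripheral arm, was lower too: by 1 probe it stood at 9.64 and 9.78 against 10.49 and 10.48, a difference of -1.19 (SE 0.366, adjusted p = 0.0229; 0.0181 to 0.434). Its 3 other probes, at -1.06 (the brightest), -0.35 and -0.03, were not called. The Sdhb probes stood at 10.08 and 10.07 against 10.73 and 10.78 (difference -1.0, SE 0.28, adjusted p = 0.0133; 0.00889 to 0.712) and at 10.70 and 10.45 against 11.24 and 11.14 (-0.79, SE 0.279, adjusted p = 0.0444; 0.0315 to 0.984). In measured signal, the E13.5 replicates of this Ndufs4 probe and of Sdhb lay close together, below both E9.5 arrays. With batch in the fit, the Ndufs4 difference was -0.84 without E13.5 CNH replicate 2 and -1.64 without replicate 1. For the Sdhb probes these differences were -0.68 and -1.43, and -0.49 and -1.19.

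All 8 lower calls were lost without E13.5 CNH replicate 2, the array with the fewest detected probes, and without either E9.5 CNH array, leaving a count of 2 each time (15.3%, 10.9% and 10.4% of all probes). Without the 5 arrays with the fewest detected probes, which leaves 1 array at E13.5, 14 members were called against 32.9% of all probes, and of these 8 probes only Uqcrb and 1 Sdhb probe lost the call. Without E13.5 CNH replicate 2 the differences were -1.11 for Atp5o, -0.70 for Ndufc2, -0.77 for Cox5b, -0.71 for Ndufs3, -0.60 for Uqcrb, -0.84 for Ndufs4, and -0.68 and -0.49 for Sdhb. With either E9.5 CNH array left out, each difference lay between that value and the larger one without E13.5 CNH replicate 1. Of the 14 alternatives, 5 to 9 lost each of these calls. The smallest differences among them were -0.36 for Atp5o, -0.01 for Ndufc2, -0.05 for Cox5b, -0.58 for Ndufs3, -0.40 for Uqcrb, -0.70 for Ndufs4, and -0.31 and -0.02 for Sdhb. Without E13.5 CNH replicate 1 the count was 28 (35.1% of all probes), and 21 members had an unadjusted p under 0.05 in the fit over all arrays. In E13.5 CNH against E9.5 CNH the members' median was -0.14 (-0.12 over all probes), and it turned to 0.10 with cyclic loess scaling, which moved the median of all probes to 0.12, and to 0.06 without the batch term. By complex the medians were -0.13 (I), -0.72 (II), -0.32 (III), -0.12 (IV) and -0.11 (ATP synthase). Within batch 2 alone, with 1 array at E13.5, 5 members were called, against 15.7% of all probes, with Cox4i2, Cox6b2 and Atp5o (-1.11) among them.

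Other cell types moved with this comparison as well. Blood markers were higher in 10 and lower in 2 of 17 probes, with sums of 188000 and 73300 at E13.5 against 54900 and 56500 at E9.5. Without E13.5 CNH replicate 2 these counts were 3 and 2. Most of the blood probes are of the adult globin Hbb-b1, as was the brightest at E13.5 (14.04). The embryonic globin Hbb-bh1 was lower (-3.62). By measured means at E13.5 and E9.5, Hba-a1 stood at 13.92 and 13.08, a probe of Hbb-y at 13.20 and 13.14, and Hba-x at 10.66 and 12.29. Surface ectoderm markers were higher in 3 of 6 probes, with sums of 4330 and 4290 against 400 and 419: Krt14 by 6.31, Trp63 by 4.68 and Cldn4 by 4.03, while Krt15 was detected on 1 array of the series. Visceral endoderm markers had 0 of 7 probes called by limma, and of the heart and muscle markers Myog was lower, a call lost without E13.5 CNH replicate 2. The part of these cells in the result was not tested.

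**Figure D5:**
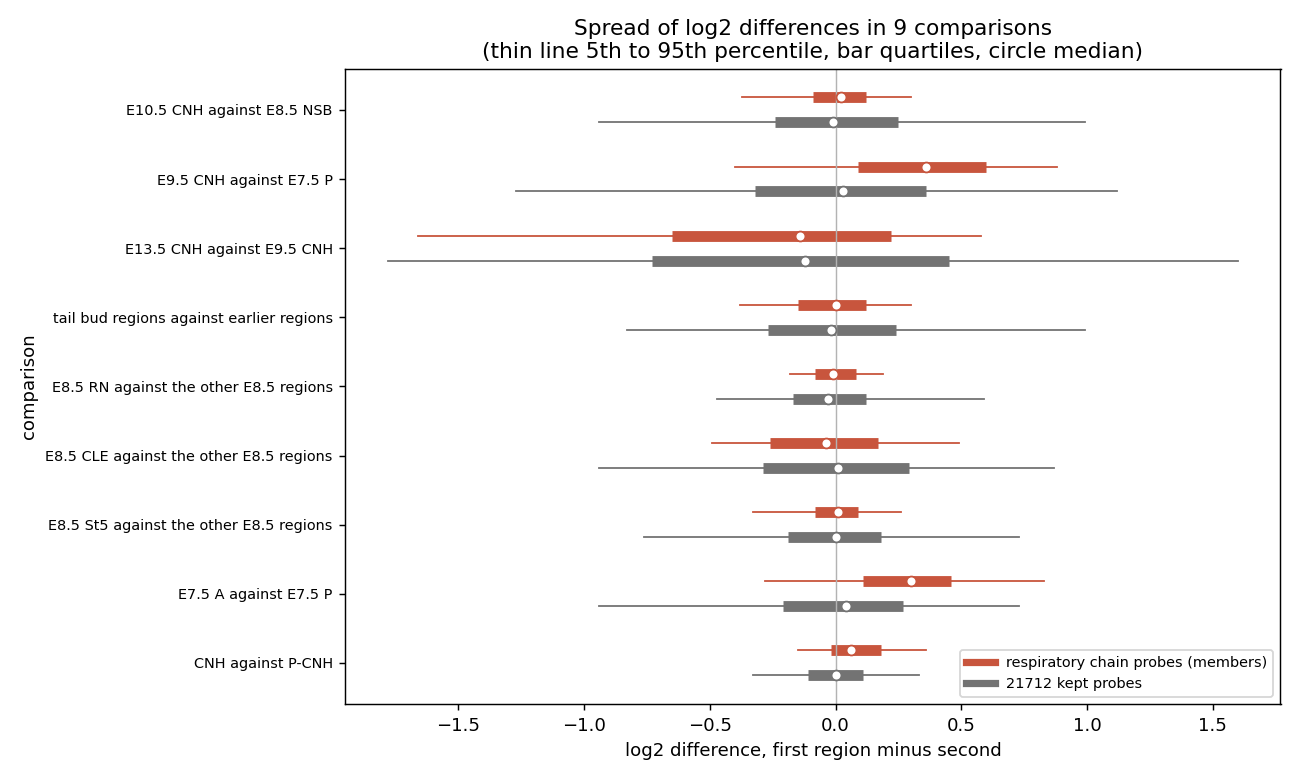
Log2 differences in the 9 comparisons for the 101 members and for all 21712 kept probes, with the median, the quartiles and the 5th to 95th percentiles. The members' medians run from -0.14 (E13.5 CNH against E9.5 CNH) to 0.36 (E9.5 CNH against E7.5 P).

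Between the NMP-containing E8.5 NSB and E10.5 CNH, no member was called in the fit over all arrays, and 3 were within batch 1, where 19.7% of all probes were. The comparison sets midline NMP regions of different stages side by side. By limma 0 members were higher (3.54% of all probes were) and 0 lower (3.6%), with 1 at an unadjusted p under 0.05. The members' median was 0.02 against -0.01 over all probes, and 2.97% of members against 20.5% of all probes exceeded 1.5-fold. Cox4i2 differed by 0.86 (SE 0.625, adjusted p = 0.713; 0.000645 to 1 over 14 alternatives), Cox6b2 by 0.81 and Atp5sl by -0.63. Over the alternatives these ran from 0.16 to 0.92, from 0.33 to 0.89 and from -0.82 to -0.58. Within batch 1, which holds both CNH arrays and 2 NSB arrays, the same differences had adjusted p of 0.000796 (SE 0.141) for Cox4i2, 0.00105 (SE 0.139) for Cox6b2 and 0.0172 (SE 0.173) for Atp5sl. With the BeadChip as a fixed term there, they were 0.000645, 0.000338 and 0.00316. Without the 5 arrays with the fewest detected probes 2 members were called, against 14.8% of all probes. The E10.5 arrays of Cox4i2, at 6.13 and 5.92, lay above those NSB arrays, at 5.03 and 5.29, and below the NSB array of batch 3, at 7.25. Those NSB arrays did not detect it, so its size in batch 1 is open. Blood markers were higher in 4 of 17 probes, with sums of 44200 and 52700 in the CNH against 16600, 5350 and 2750 in NSB. Visceral endoderm markers were lower in 2 of 7. Their part in the result was not tested.

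At E8.5, no member was called for the rostral node or the caudal lateral epiblast against the other 4 regions in the fit over all arrays, and for the epiblast some alternatives called members. For RN, by limma 0 members were higher (1.88% of all probes) and 0 lower (0.368%), with 0 at an unadjusted p under 0.05 and a median of -0.01 (-0.03 over all probes). No member exceeded 1.5-fold, against 8% of all probes. The smallest p-values belonged to Ndufa10 (-0.23), Cox7a1 (0.34) and Atp5s (-0.17), each with an adjusted p of 1, and within batch 1 the count was 0 too. Blood markers were higher in 4 of 17 probes in RN, with sums of 28300 and 13100. These sums were 16600, 5350 and 2750 in NSB, 18600 and 3860 in St1, 10100 and 3040 in St5, and 3800, 615 and 513 in CLE, so the regions overlapped. For CLE, by limma 0 members were higher (0.101% of all probes) and 0 lower (0.912%), with 0 at an unadjusted p under 0.05 and a median of -0.04 (0.01 over all probes). The members with the smallest p were Uqcrb (1.03), Atp5a1 (0.79, SE 0.46) and Atp5g2 (-0.54, SE 0.367), each with an adjusted p of 1. The latter pair took the other sign without the batch term: in E8.5 CLE against the other E8.5 regions Atp5a1 was then at -1.18 and Atp5g2 at 0.51. Without the 5 arrays with the fewest detected probes, 2 of them of CLE, 4 members were higher (3.96%, against 9.13% of all probes called). Without the batch term 3 members were called (14.4% of all probes) and without the detection filter 2 (1.19%). CLE lies in batches 2 and 3 and the other regions mostly in batch 1. Within batches 2 and 3 NSB has 1 array, and the members' median against it was 0.00 (0.02 over all probes). In CLE 1 of 17 blood and 1 of 7 visceral endoderm probes were lower.

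In the posterior streak, St5, Cox4i2 was the member that stood out, although it did not pass in the fit over all arrays. It stood at 7.04 and 6.94 in St5, above both arrays of RN and St1 and below NSB replicate 3 and CLE replicate 2. The log2 difference was 1.72 (SE 0.55) with an adjusted p of 0.0775 by limma (1.15e-06 to 0.647 over 14 alternatives, with differences of 0.76 to 1.82). Within batch 1, where RN, St1 and 2 NSB arrays lay between 5.03 and 5.51 and did not detect it, so that the size is open, it differed by 1.65 (SE 0.115, adjusted p = 1.15e-06), the only member among the 13.7% of all probes called. Without E8.5 CLE replicate 2 the difference was 1.88 and 1 member was called (5.78% of all probes), as was 1 (against 10.6% of all probes) without the 5 arrays with the fewest detected probes. In all, 0 members were higher by limma (2.73% of all probes) and 0 lower (2.74%), with 1 at an unadjusted p under 0.05 and a median of 0.01 (0.00 over all probes). The next members were Atp5sl (0.35) and Ndufa12l (-0.38). Tnnc1 (1.52) and Myl7 (1.38), 2 of 7 heart and muscle probes, were higher in St5, and no blood or visceral endoderm probe was called. Their part in the result was not tested.

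At E7.5, Cox6b2, Cox6c and Atp5h had the smallest p-values between the anterior and posterior regions, and none passed. Cox6b2 stood at 8.32, 8.64 and 9.04 in A and at 6.77 and 7.48 in P, without overlap, a log2 difference of 1.42 (SE 0.478, adjusted p = 0.157 by limma; 0.0194 to 0.503 over 14 alternatives). Cox6c averaged 12.10 in A (SD 0.58, 3 arrays), against 10.38 and 11.41 in P (difference 0.83, SE 0.285), and Atp5h at 11.37, 11.03 and 11.96 against 10.04 and 10.83 (difference 0.70, SE 0.224). Groups did not overlap in any of these genes. By limma 0 members were higher (1.21% of all probes) and 0 lower (1.52%), with 13 at an unadjusted p under 0.05. Differences were positive in 83 of 101 members, with a median of 0.30 against 0.04 over all probes. Without E7.5 P replicate 1 the median was -0.02 and the differences were 1.06, 0.32 and 0.31 in the same order, and without E7.5 P replicate 2 the count was 5 (2.57% of all probes). Without the 5 arrays with the fewest detected probes 3 members were higher, Cox6b2 among them (adjusted p = 0.0194), and 1 lower, against 8.42% of all probes called. Within batch 2, Ndufb10 was called (1.22, adjusted p = 0.0338; 1.75% of all probes were), and within batches 2 and 3 no member was. Of the visceral endoderm markers Apob was lower in A (-2.14), and of the heart and muscle markers Myl7 was higher (2.64). Their part in the result was not tested.

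Between CNH and P-CNH at matched stages (E9.5, E10.5 and E11.5), which compares NMP-containing with mesoderm-fated tissue, no member was called over all arrays. Cox4i2 was lower in the CNH at E10.5, within batch 1. There it stood at 6.13 and 5.92 in the CNH and at 7.22 and 6.94 in the P-CNH, without overlap, a log2 difference of -1.05 (SE 0.141, adjusted p = 0.00182), with 2.58% of all probes called in batch 1. Over the 3 stages the difference was -0.88 (adjusted p = 0.966; 0.00164 to 1 over 16 alternatives), and within batches 2 and 3 it was -0.80. By limma 0 members were higher (0.497% of all probes) and 0 lower (0.101%), with 1 at an unadjusted p under 0.05 and a median of 0.06 (0.00 over all probes). Atp5l (0.44), a subunit of the membrane part of ATP synthase, and Uqcrh (0.36), the hinge protein of complex III, followed, each with an adjusted p of 1. Whether the CNH and P-CNH difference changed between stages was tested directly: 0 members were called between E11.5 and E10.5 or between E11.5 and E9.5, with 0 at an unadjusted p under 0.05 by limma. Of all 21712 probes 1 and 6 were called, so these counts say little about the members. No probe of the blood, endoderm, ectoderm or heart and muscle lists was called.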

How the data were processed

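The deposited table gives, per array, the average bead intensity of each probe, not normalised by the authors, and a detection p-value of the deposited table. Intensities of all 45281 probes on 36 arrays were background-corrected and quantile-normalised in limma 3.58.1 (R 4.3.3) with an offset of 16 and negative controls inferred from the detection p-values, then put on the log2 scale. Probes with a detection p under 0.01 on at least 1 array were kept (21712), and 23569 were left out. limma fitted the 16 regions with batch as a fixed term (18 residual degrees of freedom, 3.85 prior), with an F-test among regions and 9 contrasts. Benjamini-Hochberg adjustment ran over all kept probes. Calls needed an adjusted p of 0.05 or less and, in contrasts, at least a 1.5-fold difference. Arrays were not paired by replicate number. In batch 1 that number is the BeadChip, and regions of the same stage had equal piece counts on its arrays, as had E7.5 A and P in batch 2 and replicate 1 of both E9.5 regions, so whether pools were linked is open.

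Each gene was represented by its kept probe with the highest mean, and other probes were given where called. Named were up to 25 called genes per comparison (or the 3 with the smallest p), the 8 genes with the smallest F-test p, isoform families, core subunits and the members that are not subunits. Lists of assembly factors, electron carriers, tricarboxylic acid cycle enzymes, mitochondrial and cytosolic ribosomal proteins, biogenesis regulators, glycolytic enzymes and markers were described by counts. Members and lists were chosen with earlier results of these data known. Alternatives changed the background correction, offset, scaling, batch or BeadChip terms, filter, minimum fold or arrays used, and each array was left out in turn. The code was tested on simulated data.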

Additional observations from a re-analysis of the deposited data

How the results depend on the processing

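Signs turned for Atp5a1 and Atp5g2 in CLE, neither of them called. The members' median kept its sign over the alternatives only in E9.5 CNH against E7.5 P (0.05 to 0.46). Counts of called members are given for the settings that moved them, with the share of all probes called there in brackets; the cause was not tested. For the F-test (5 members, 35.6%) the count was 18 without the batch term (43.5%), 8 without the detection filter (19.3%) and 25 without the 5 arrays with the fewest detected probes (63%), and 3 to 18 when single arrays were left out. For E10.5 CNH against E8.5 NSB (0, 7.14%) it was 3 in batch 1 alone (19.7%), 3 there with BeadChip as a fixed term (20.1%) and 2 without those 5 arrays (14.8%), and 0 to 0 over left-out arrays. For E9.5 CNH against E7.5 P (5, 9.27%) it was 0 with cyclic loess (9.31%), 0 without the batch term (6.19%), 2 without the filter (4.01%) and 0 in batches 2 and 3 alone (5.15%). Without those 5 arrays 3 were lower, and the count was 0 to 11 over left-out arrays. For E13.5 CNH against E9.5 CNH (10, 23%) it was 5 without the batch term (17.1%), 2 with the BeadChip as a random block (7.55%, consensus correlation 0.483), 1 with it as a fixed term (7.21%) and 4 with a replicate block beside region and batch (18%). It was 2 in batches 2 and 3 alone (11.1%), 5 in batch 2 alone (15.7%), 6 by each gene's brightest probe and 2 to 28 over left-out arrays. With cyclic loess (11.9%) 6 were higher and 2 lower, and without the filter (13.9%) 5 were higher. For tail bud regions against earlier regions (2, 19.1%) it was 4 without the batch term (22.7%), 1 with an offset of 100 (9.96%), 1 when no background was corrected (11.4%), 1 in batches 2 and 3 alone (20%) and 12 in batch 2 alone (29%). It was 1 to 4 over left-out arrays, while 2 were higher and 0 lower with cyclic loess, and 2 higher with the random block.

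For E8.5 CLE against the other E8.5 regions (0, 1.01%) it was 3 without the batch term (14.4%), 2 without the filter (1.19%), 4 without the 5 arrays (9.13%) and 0 to 0 over left-out arrays. For E8.5 St5 (0, 5.47%) it was 1 with cyclic loess (7.45%), 1 in batch 1 alone (13.7%), 1 there with BeadChip as a fixed term (13.8%), 1 without the 5 arrays (10.6%) and 0 to 1 over left-out arrays. For E7.5 A against E7.5 P (0, 2.73%) it was 1 with the BeadChip as a random block (3.14%), 1 as a fixed term (2.81%), 1 in batch 2 alone (1.75%), 4 without the 5 arrays (8.42%) and 0 to 5 over left-out arrays. For CNH against P-CNH (0, 0.599%) it was 1 in batch 1 alone (2.58%), 1 there with BeadChip as a fixed term (2.86%) and 0 to 0 over left-out arrays. For E8.5 RN (0, 2.25%) no setting moved it, with 0 to 0 over left-out arrays.

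Batch 2 alone, batch 1 with a BeadChip term, the brightest probe per gene, the stage difference of CNH minus P-CNH and the fit without 5 arrays were chosen after seeing the data. A correlation between arrays of the same replicate number, not of their full signals, had a median of 0.03. In batch 1, where the number is the BeadChip, its median was 0.09 (-0.13 to 0.39). Full signals of arrays of the same region correlated at 0.858 to 0.997. Leaving out E8.5 NSB replicate 3 could not be estimated for 5 results (the F-test, the tail bud comparison, RN, CLE and St5). NSB is the only region with arrays in batch 1 and in another batch, and only through that array. With batch in the fit, those 5 results therefore rest on it. Some regions have 1 array in a fit, after leave-outs or within batches. In batch 2 these are CLE, the E9.5 P-CNH and the CNH at E12.5 and E13.5, and in batches 2 and 3 NSB. Such a lone sample is assumed to vary like the other groups. RN, St5 and E10.5 CNH against E8.5 NSB could not be compared within batches 2 and 3. Members near background, such as Uqcrfs1, cannot show a lower level.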

Other observations

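Other mitochondrial and metabolic genes also differed among regions and between stages. By the F-test among regions, 5 of 31 probes of assembly factors passed (16.1%), 10 of 36 of electron carriers and exchange proteins (27.8%), 5 of 27 of tricarboxylic acid cycle enzymes (18.5%), 17 of 110 of mitochondrial ribosomal proteins (15.5%), 6 of 23 of mitochondrial biogenesis regulators (26.1%), 9 of 90 of cytosolic ribosomal proteins (10%) and 8 of 29 of glycolytic enzymes (27.6%). All kept probes passed in 35.6%. The list of glycolytic enzymes also holds Pdk1 and Slc2a1, which are not enzymes of glycolysis. Among markers, all 17 blood and all 7 visceral endoderm probes passed, 5 of 6 of surface ectoderm (83.3%) and 4 of 7 of heart and muscle (57.1%). Hk2 was not analysed here. Across the tail bud against earlier regions, 3 of the 29 probes of that list were higher and 1, of Slc2a1, was lower (10.7% and 8.46% of all probes were). Eno3, an enolase known from muscle, rose by 1.77 (SE 0.127, adjusted p = 1.77e-10). Pdk1, which inhibits the pyruvate dehydrogenase complex, rose by 1.16 (adjusted p = 2.65e-05), while the glucose transporter Slc2a1 fell by 0.79 (adjusted p = 1.07e-06). Cytosolic ribosomal proteins were lower in 10 of 90 probes, near the 8.46% of all probes, with Rpl31 at -1.34 (adjusted p = 1.42e-08). Ppargc1b, a coactivator of mitochondrial genes, differed by -0.88 (adjusted p = 0.000815), Pdha1 of the pyruvate dehydrogenase complex by -0.59 (adjusted p = 0.00118) and Mrps18b by -0.62 (adjusted p = 3.25e-06). Biogenesis regulators were lower in 2 of 23 probes, tricarboxylic acid cycle enzymes in 1 of 27 and mitochondrial ribosomal proteins in 2 of 110. None of these lists had a higher probe.

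From E9.5 to E13.5 in the CNH, mitochondrial ribosomal proteins were higher in 3 and lower in 19 of 110 probes (median -0.34), and biogenesis regulators higher in 1 and lower in 7 of 23 (median -0.38). Of all probes 10.6% were higher and 12.46% lower. Without E13.5 CNH replicate 2 the former were higher in 1 and lower in 9, the latter higher in 1 and lower in 4, and of all probes 8.61% were higher and 6.69% lower. Tfam, which packages and transcribes mitochondrial DNA, differed by -1.73 (SE 0.5, adjusted p = 0.0163), and Gabpb1 by -1.39 (SE 0.214, adjusted p = 7.45e-05). Assembly factors were lower in 5 of 31 probes (Sco1, a copper carrier for complex IV, by -2.35; SE 0.751, adjusted p = 0.0274) and in 1 without that array, and Pgam1 of glycolysis differed by -2.40 (adjusted p = 0.000423). Electron carriers were higher in 2 and lower in 3 of 36 probes, and in 2 and 4 without it, with Etfb at 1.24 (adjusted p = 0.0021). From E7.5 P to the E9.5 CNH, citrate synthase (Cs) rose by 0.91 (SE 0.22, adjusted p = 0.00787). From E9.5 to E13.5 in the CNH it differed by -0.75 (adjusted p = 0.0204 by limma) and Pdk1 by -1.98 (adjusted p = 0.00251). In St5, Polg, the mitochondrial DNA polymerase, was higher by 1.77 (adjusted p = 0.000518), and Eno3 was higher in the E10.5 CNH than in NSB by 2.28 (adjusted p = 8.97e-06). Counts in the other comparisons, and the genes named here, were not recomputed without single arrays.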
